A study of Mus musculus with 10 samples.

Results

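Genes of mouse chromosome 11 were described along the chromosome in 6 groups of embryonic stem cell arrays. A gene was a member if a named probe for it lay on chromosome 11 in the array's own annotation and stood well above background on all 10 arrays, and the probe with the highest mean signal stood for it. Members were thus chosen by their position and by signal above background, and the chromosome itself was chosen on its level in Dnmt1_KO. This gave 1284 members of 2268 named chromosome 11 genes on the array, and of 16104 genes kept over all chromosomes. The other autosomes held 14036 genes chosen the same way. Members ran from 3030755 to 121818048 on mm9, their mean levels from -3.72 to 10.1. Just outside the rule lay Wnt3, a signalling ligand, and Serpinf1, a secreted factor, which were well above background on 9 of the 10 arrays.

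The study set lines that overexpress PRDM14, a factor that lowers DNA methylation, beside lines that lack DNA methyltransferases, on the question of which genes respond. J1 is wild-type (2 arrays). Line JP-23, labelled PRDM14, is wild-type with stable expression of Prdm14 (2 arrays), and line JP-23+3b-3, labelled PRDM14_DNMT3B, stably expresses Prdm14 together with Dnmt3b1 (2 arrays). Line 8bb, labelled Dnmt3b_KO, is Dnmt3b-/- (2 arrays). Line 36, labelled Dnmt1_KO, is Dnmt1-/-, and line 19-1, labelled TKO, is Dnmt1-/-Dnmt3a-/-Dnmt3b-/-. Dnmt1_KO and TKO have 1 array each and so no replicate. Each group is 1 line, and the cultures were feeder-free, in a serum medium to which leukaemia inhibitory factor (LIF) was added. Nothing in the labels makes the replicates separate cultures, and the p-values therefore reflect array-to-array spread that could be purely technical. In such bulk RNA a change in the make-up of the cells and a change in RNA per cell cannot be told apart.

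Chromosome 11 is a gene-rich mouse autosome that carries housekeeping genes, the imprinted Grb10 region, interferon-inducible GTPases, the Hoxb cluster and type I keratins. Whole-chromosome gains are known in cultured mouse embryonic stem cells, and chromosome 11 is among the chromosomes reported to be gained. DNA copy number was not measured here. DNA methylation, kept through cell division by Dnmt1 and set by Dnmt3a and Dnmt3b, silences some germline genes, imprinted alleles and retroelements in these cells.

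The manipulated genes lie on other chromosomes. Dnmt1 was at 1.30 to 1.83 on the 8 arrays of lines with the gene, at -2.68 in Dnmt1_KO and at -3.15 in TKO. Dnmt3b was at 7.57 to 7.65 in J1 and Dnmt1_KO, at 1.62 to 1.99 in Dnmt3b_KO and TKO, at 4.996 and 5.05 in the line labelled PRDM14, and at 4.09 and 4.17 in PRDM14_DNMT3B. This probe, the brightest of 3 for Dnmt3b, thus did not show the added Dnmt3b1 of PRDM14_DNMT3B, which lay below PRDM14 and J1, and whether it can detect that transgene is not stated. The Prdm14 probe was at -0.08 and 0.09 in J1, at -4.32 and -4.02 in the line labelled PRDM14 and at -6.35 and -6.42 in PRDM14_DNMT3B, so the array did not show the overexpression, and whether this probe can detect the transgene is not stated. All 6 embryonic stem cell markers checked, among them Pou5f1 and Nanog, were well above background on all 10 arrays. Their summed linear level was 702 in Dnmt1_KO and 826 to 1098 on the others, and Dppa5a made up most of it. In Dnmt1_KO, Pou5f1 was at 5.21 (J1 mean 5.99), Sox2 at 2.72 (J1 3.66), Zfp42 at 5.50 (J1 6.16) and Esrrb at 4.83 (J1 5.59). Dppa5a was at 9.02 there (J1 9.29), and Nanog was not lower, at 5.99 (J1 5.93). No spot was saturated, 50.03% to 56.03% of spots were well above background per array, and replicate arrays correlated at 0.99559 to 0.99796 across genes.

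The promoters of 4 members are shown because these genes rose over J1 in both lines without Dnmt1. Irgm1, Igtp and Tgtp2 encode interferon-inducible GTPases that act against intracellular pathogens, and Tex19.1 is a germline gene that restrains retrotransposons. Each sequence is the 250 bases before the RefSeq start of the gene, written 5′ to 3′ on the strand of the gene, on GRCm38.p6 (RefSeq), whose coordinates are not those of the mm9 probes. In the 3 GTPase promoters the capitals mark GAAA, any 2 bases and GAAA, a core of the element that interferon-activated factors bind, which was searched on both strands and held by 2.98% of 32851 windows of this length in the RefSeq table. In Tex19.1 the capitals mark CG, the dinucleotide that Dnmt1 and Dnmt3 enzymes methylate.
Irgm1 (chr11:48871421-48871670, minus strand): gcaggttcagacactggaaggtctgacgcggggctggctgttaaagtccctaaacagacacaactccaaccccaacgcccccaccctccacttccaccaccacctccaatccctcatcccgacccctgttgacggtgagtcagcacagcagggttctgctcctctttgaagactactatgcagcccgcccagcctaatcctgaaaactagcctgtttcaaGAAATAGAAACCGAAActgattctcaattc
Igtp (chr11:58199306-58199555, plus strand): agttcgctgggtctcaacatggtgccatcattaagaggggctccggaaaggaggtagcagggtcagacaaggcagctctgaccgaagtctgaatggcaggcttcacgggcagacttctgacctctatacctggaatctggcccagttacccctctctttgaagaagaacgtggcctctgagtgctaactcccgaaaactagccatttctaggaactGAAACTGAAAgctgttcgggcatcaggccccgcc
Tgtp2 (chr11:49064213-49064462, minus strand): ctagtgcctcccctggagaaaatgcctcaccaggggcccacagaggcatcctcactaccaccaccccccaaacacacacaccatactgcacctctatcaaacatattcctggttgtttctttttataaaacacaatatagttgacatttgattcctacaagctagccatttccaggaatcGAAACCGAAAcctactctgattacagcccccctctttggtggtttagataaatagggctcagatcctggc
Tex19.1 (chr11:121145893-121146142, plus strand): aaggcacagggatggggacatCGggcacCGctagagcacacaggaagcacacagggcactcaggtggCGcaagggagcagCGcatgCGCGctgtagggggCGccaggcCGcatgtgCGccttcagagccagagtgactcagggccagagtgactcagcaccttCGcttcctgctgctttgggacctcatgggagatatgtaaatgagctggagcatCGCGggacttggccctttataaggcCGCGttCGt
Irgm1 holds 2 overlapping matches that begin 30 and 24 bases before the start, Igtp holds 1 match at 34 bases and Tgtp2 holds 1 at 70 bases. The Ifi35 and Ifi47 windows hold no match, which says only that these letters are not there. Tex19.1 holds 15 CG against a median of 6 over the table, and 27.3% of the windows hold at least as many. A match is a description of the letters; binding and methylation of these promoters were not measured.

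Across the chromosome, members stood higher in Dnmt1_KO than in J1 when set against the other autosomes. A level is the log2 of a probe's signal relative to the 75th percentile of its array, and this scaling left the genes of the other autosomes at a median difference of -0.205 in Dnmt1_KO against J1 (all genes -0.186) and -0.121 in TKO against J1 (all genes -0.116). The members lay at a median of 0.017 in Dnmt1_KO against J1, which is 0.222 log2 units or 1.17-fold above the other autosomes. The shift covered most of the distribution: it was 0.191 at the 10th percentile of the members, 0.204 at the 25th, 0.255 at the 75th and 0.211 at the 90th, and 921 of 1284 members (71.7%) lay above the median of the other autosomes. Chromosome 11 was chosen with this shift known, so it is given as a description with no test.

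Deviations were taken from a gene's mean over the 6 group means, so a group of 1 array counts as much as a group of 2. Measured on each array, the median deviation of the members, minus that of the other autosomes, was -0.055 and -0.079 in J1. It was -0.027 and -0.031 in the line labelled PRDM14, -0.022 and -0.035 in PRDM14_DNMT3B, and -0.071 and -0.074 in Dnmt3b_KO. Dnmt1_KO stood at 0.157 and TKO at 0.007. Dnmt1_KO was the highest array and TKO the next, and the 8 arrays of the other lines were all below 0. The SD between replicate arrays was about 0.010, a spread that may be purely technical and does not measure variation between lines or cultures. Dnmt1_KO exceeded each other array by 0.159 (TKO) to 0.240 (Dnmt3b_KO replicate 2). On slide 1, which also held J1 replicate 1, PRDM14_DNMT3B replicate 1, Dnmt3b_KO replicate 1 and TKO, Dnmt1_KO exceeded those by 0.225, 0.177, 0.238 and 0.159. Per the file headers, Dnmt1_KO and TKO carry a later scan time of that slide than the other 3 arrays, so on slide 1 scan time and the absence of Dnmt1 cannot be told apart. On slide 2, J1 replicate 2, which has Dnmt1, also carries a later scan time than the other arrays of its slide. It was the lowest of the 10 arrays at -0.079, but it is 1 array of another line, and an effect of scan time was not tested. The members also took a larger share of the summed autosomal signal in Dnmt1_KO, 9.87%, against 8.96% to 9.25% on the other 9 arrays.

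**Figure D1:**
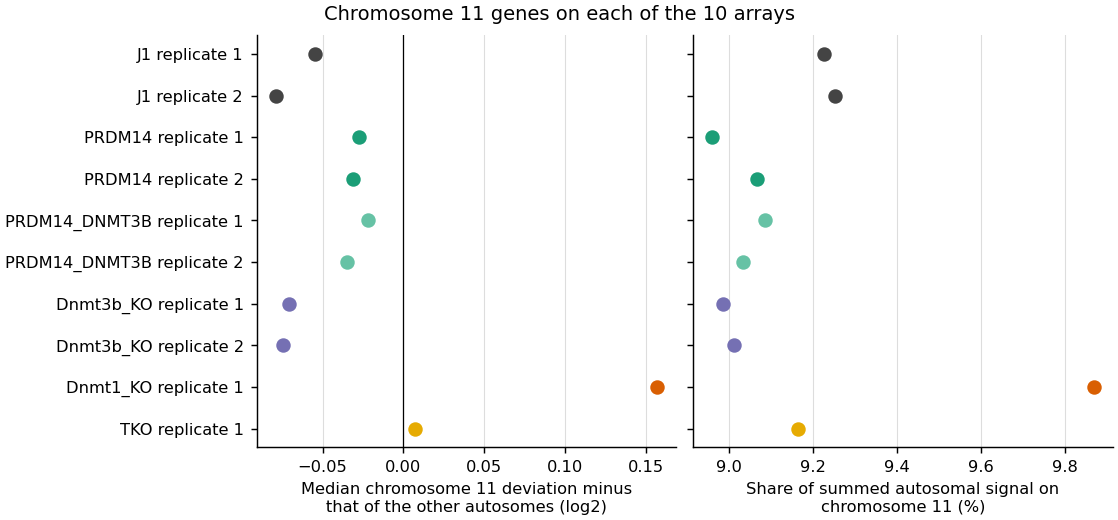
Left, the median deviation of the 1284 chromosome 11 genes minus that of the other autosomes on each of the 10 arrays (log2); right, their share of the summed autosomal signal (%). Each point is 1 array, coloured by group; Dnmt1_KO lies at 0.157 and 9.87%, to the right of the other 9 arrays in both panels.

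Beside the other autosomes, chromosome 11 ranked 1 of 19 in Dnmt1_KO against J1, ahead of chromosome 14 at 0.171. In TKO against J1 its shift was 0.070, rank 3, behind chromosome 8 at 0.236 and chromosome 14 at 0.224. It was 0.004 in Dnmt3b_KO against J1, rank 9. In the lines labelled PRDM14 and PRDM14_DNMT3B it was 0.031 and 0.027 over J1, both rank 3. These last values are small against the J1 arrays: in PRDM14_DNMT3B the shift ran from 0.017 without J1 replicate 2 to 0.054 without J1 replicate 1, in PRDM14 from 0.020 to 0.045, and in Dnmt3b_KO it was -0.009 without J1 replicate 2. These 5 comparisons share the J1 arrays. Without J1, the shift was 0.242 in Dnmt1_KO against Dnmt3b_KO, rank 1, with 76.7% of members above the median of the other autosomes. TKO lay 0.159 below Dnmt1_KO, rank 19, and PRDM14_DNMT3B lay 0.015 above PRDM14, rank 6. The comparisons with Dnmt1_KO all use the array on whose level the chromosome was chosen, so they are not separate evidence of its shift.

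**Figure D2:**
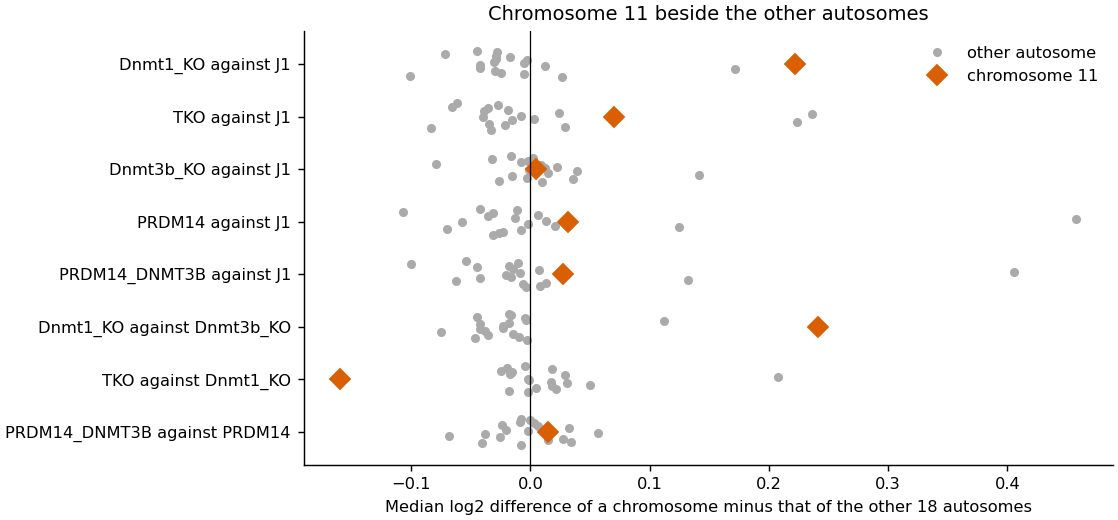
Median log2 difference of each of the 19 autosomes minus that of the other 18, in 8 comparisons; the diamond is chromosome 11 and each grey point another autosome. Chromosome 11 is the rightmost point at 0.222 in Dnmt1_KO against J1 and at 0.242 in Dnmt1_KO against Dnmt3b_KO, and the leftmost at -0.159 in TKO against Dnmt1_KO.

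Along the chromosome the Dnmt1_KO shift was present in each of 4 consecutive stretches of 321 genes, at 0.210, 0.295, 0.177 and 0.237 against J1. In windows of 10 Mb it lay above 0 in 12 of 13. The exception was the window from 10 to 20 Mb, which holds 22 members including the Grb10 region, at -0.020. The highest window was the last, from 120 Mb on, which holds 61 members including Tex19.1 and Tex19.2, at 0.412. A running median over 51 genes was above 0 at 1234 of 1234 positions and ran from 0.025 to 0.458. Against Dnmt3b_KO, 13 of 13 windows were above 0, the lowest at 0.070.

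Against J1 the other lines had smaller shifts over the whole chromosome and windows on both sides of 0. The chromosome was chosen on its level in Dnmt1_KO, and windows of other autosomes were not counted. Evenness apart from the size of the shift was thus not measured. In TKO against J1 the 4 stretches lay at 0.100, 0.080, 0.038 and 0.061, 10 of 13 windows were above 0, and the last window was again the highest at 0.267. In Dnmt3b_KO against J1, 6 of 13 windows were above 0. In the line labelled PRDM14 the 4 stretches lay at 0.040, 0.019, -0.012 and 0.092, and 7 of 13 windows were above 0. In PRDM14_DNMT3B 9 of 13 windows were above 0. In TKO against Dnmt1_KO the members were lower in all 13 windows, by 0.034 to 0.255.

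**Figure D3:**
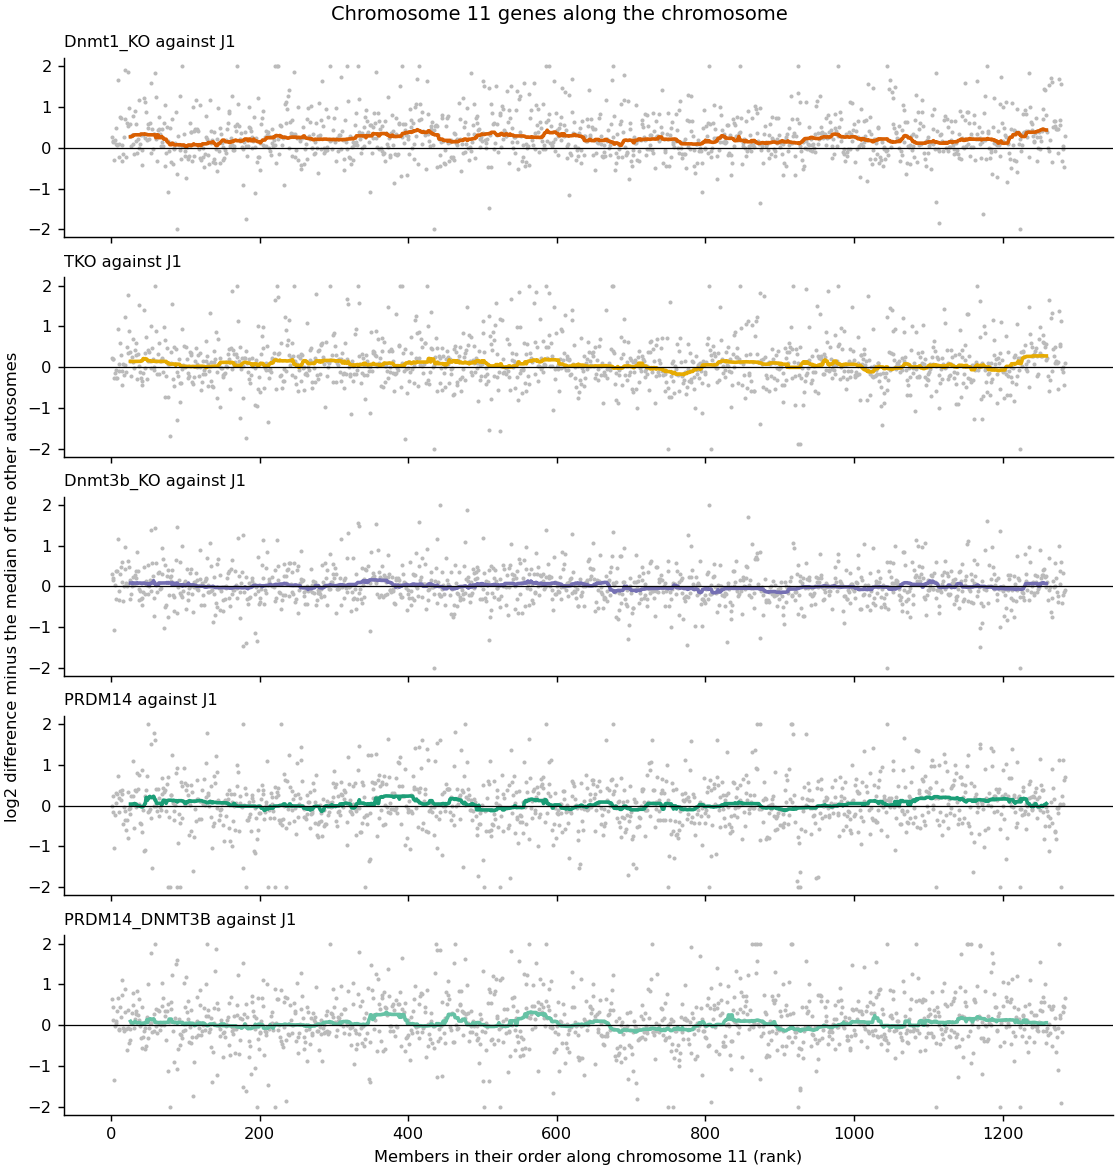
Each grey point is 1 of 1284 members in order along chromosome 11, and its height is the log2 difference from J1 minus the median of the other autosomes; differences past 2 in either direction are drawn at 2. The coloured line is the running median over 51 genes, which stays above 0 in Dnmt1_KO and crosses 0 in the other 4 panels.

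The shift was also measured on other probes and by level. In Dnmt1_KO over J1, other probes of the same genes, which the rule had set aside, gave 0.233 over 372 probes. Of 95 called members with such a probe, 85 had the same sign on it. In the lines labelled PRDM14 and PRDM14_DNMT3B the other probes turned the sign of the small shift over J1, to -0.011 and -0.009, and 112 of 142 and 136 of 159 called members had the same sign on them. In TKO and Dnmt3b_KO over J1 the other probes gave 0.057 and 0.008. Over 4 bins of mean level, from dim to bright, the Dnmt1_KO shift was 0.221, 0.266, 0.249 and 0.217.

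Single genes were tested with limma in 1 fit over all 16104 genes, called at a Benjamini-Hochberg adjusted p under 0.05. For Dnmt1_KO and TKO, with 1 array each, the fit takes its spread from the 4 groups with 2 arrays, as if these lines varied alike. In Dnmt1_KO against J1, 429 members were called, 279 higher and 150 lower, where 37.6% of all genes were called, 13.5% higher and 24.1% lower. Of them, 86 were more than 2-fold higher and 17 more than 2-fold lower. The share of all genes past 2-fold was not counted, so these numbers cannot be read as a trait of the chromosome. On other scalings the split was 362 higher and 106 lower after quantile normalization (32.3% of all genes called), and 357 and 106 in the authors' deposited value table (31.8% of all genes called). These counts restate the shift that chose the chromosome.

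In TKO against J1, 434 members were called, 219 higher and 215 lower (all genes 37.4% called, 15.5% higher, 22% lower). In Dnmt3b_KO against J1, 400 were called, 173 higher and 227 lower (all genes 31.7%, 15.5% higher, 16.2% lower), and leaving out either Dnmt3b_KO array left 246 (all genes then 19.5% and 19.3%). In the line labelled PRDM14, 608 were called against J1, 340 higher and 268 lower (all genes 49.4%, 25.3% higher, 24.1% lower). In PRDM14_DNMT3B, 637 were called against J1, 348 higher and 289 lower (all genes 49%, 24.1% higher, 25% lower). In these 4 comparisons the members were called at 31.2% to 49.6%, near the share over all genes.

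The 5 largest rises in Dnmt1_KO over J1 were Tgtp2, Ifi35, Hic1, Hba-a2 and Igtp, and 3 of these, with Irgm1, are known as interferon-inducible genes, a grouping made after their values were seen and not tested as a list. Irgm1 (mm9 chromosome 11, 48679069 to 48679128) was at 0.59 and 0.78 in J1, 0.98 and 1.03 in Dnmt3b_KO, 3.54 in Dnmt1_KO and 2.21 in TKO. In the line labelled PRDM14 it was at -1.47 and -1.31, and in PRDM14_DNMT3B at -1.51 and -1.31. The groups ordered Dnmt1_KO, TKO, Dnmt3b_KO, J1 and then both PRDM14 lines, which overlapped each other. Against J1 it rose by 2.86 log2 units (SE 0.14, limma adjusted p = 4.59e-05) in Dnmt1_KO and by 1.53 (SE 0.14, limma adjusted p = 0.000381) in TKO. It fell by 2.07 in PRDM14 (limma adjusted p = 1.73e-05) and, in PRDM14_DNMT3B, fell by 2.09 (limma adjusted p = 1.8e-05), and its difference of 0.32 in Dnmt3b_KO did not pass (limma adjusted p = 0.0726).

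Igtp (58020927 to 58020986) was at -1.87 and -1.77 in J1, -3.02 and -2.57 in PRDM14, -1.92 and -1.85 in PRDM14_DNMT3B, -1.23 and -1.17 in Dnmt3b_KO, 1.14 in Dnmt1_KO and -0.27 in TKO. It rose 7.77-fold in Dnmt1_KO over J1 (2.96 log2 units, limma adjusted p = 9.7e-05), by 1.55 in TKO and by 0.62 in Dnmt3b_KO, and fell by 0.98 in PRDM14. Tgtp2 (48871837 to 48871896), of which the genome holds a near-identical copy, so that its probe may read both, was at -1.34 and -1.77 in J1, -0.42 and -0.56 in Dnmt3b_KO, 1.78 in Dnmt1_KO and 1.00 in TKO. It had the largest rise of any called member in Dnmt1_KO, 10.1-fold over J1 (3.33 log2 units, SE 0.18, limma adjusted p = 6.52e-05). It rose by 2.56 in TKO, 1.07 in Dnmt3b_KO and 0.59 in PRDM14_DNMT3B.

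Ifi35 (101319011 to 101319070), an interferon-induced protein coded far from the GTPases, was at -0.79 and -1.08 in J1, -0.33 and -0.45 in Dnmt3b_KO, 2.30 in Dnmt1_KO and 1.06 in TKO. It rose 9.40-fold in Dnmt1_KO (limma adjusted p = 6.52e-05), by 2.00 log2 units in TKO and by 0.55 in Dnmt3b_KO. In PRDM14 and PRDM14_DNMT3B its differences of -0.19 and -0.11 did not pass. Slfn10-ps, of the Schlafen family and chosen after its values were seen, was at -1.65 and -1.77 in J1. It was at -0.77 in Dnmt1_KO and -1.21 in TKO. In Dnmt3b_KO, where Igtp, Tgtp2 and Ifi35 rose, Slfn10-ps was below J1, at -3.05 and -3.09. On the arrays of both PRDM14 lines it was at -3.47 to -2.94. Ifi47, another GTPase of the family of Irgm1, was also chosen after its values were seen. It was at -3.25 and -3.52 in J1, -1.39 in Dnmt1_KO and -1.80 in TKO. It rose by 1.99 and 1.59 in those lines (limma adjusted p of 0.000781 and 0.00156), and its other 3 differences from J1 did not pass. TKO lay below Dnmt1_KO for Irgm1, Igtp and Ifi35, which fell by 1.33, 1.41 and 1.24 there (limma adjusted p of 0.00433, 0.00737 and 0.011), while Tgtp2 at -0.77 and Ifi47 at -0.41 did not pass.

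Germline genes with measured members were Tex19.1, Tex19.2 and Tekt1, 3 of the 11 listed genes placed on the chromosome. Tex19.1 (121009485 to 121009544) was at 5.01 and 4.95 in J1, 5.89 and 5.84 in PRDM14, 5.39 and 5.24 in PRDM14_DNMT3B, 4.20 and 4.09 in Dnmt3b_KO, 6.40 in Dnmt1_KO and 6.19 in TKO. It was highest in the lines without Dnmt1 and lowest in Dnmt3b_KO, and no groups with 2 arrays overlapped. Against J1 it rose by 1.42 in Dnmt1_KO, 1.21 in TKO and 0.88 in PRDM14 and fell by 0.84 in Dnmt3b_KO (limma adjusted p of 0.000241, 0.000353, 0.000215 and 0.00084). Its rise of 0.33 in PRDM14_DNMT3B (limma adjusted p = 0.0172) was lost without J1 replicate 2 or PRDM14_DNMT3B replicate 1 (limma adjusted p of 0.0732 and 0.0956). In PRDM14_DNMT3B it lay 0.55 below PRDM14 (limma adjusted p = 0.00438).

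The neighbouring paralog Tex19.2 (120977794 to 120977853) was at -0.58 and -0.59 in J1, -1.28 and -1.29 in Dnmt3b_KO, 0.92 in Dnmt1_KO and 0.50 in TKO. It rose by 1.51 in Dnmt1_KO and 1.08 in TKO but fell by 0.70 in Dnmt3b_KO, while the 0.08 in PRDM14 did not pass (limma adjusted p = 0.427). Tekt1, a tektin of cilia and sperm tails, was at -0.27 and -0.40 in J1, and lower at -0.89 in Dnmt1_KO and -1.05 in TKO. Its falls were called there, at differences of -0.56 and -0.71 (limma adjusted p of 0.0236 and 0.00935), and neither call held with normexp background correction (limma adjusted p of 0.093 and 0.0577).

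All 4 listed imprinted genes of the chromosome were members, and they did not move together. Grb10 (11833165 to 11833224), an imprinted adaptor that restrains growth factor signalling, was at 1.53 and 1.62 in J1, -1.55 and -1.65 in PRDM14, 0.52 and 0.36 in PRDM14_DNMT3B, 0.91 and 0.76 in Dnmt3b_KO, -1.37 in Dnmt1_KO and 0.16 in TKO. It was higher in J1 than on every other array. It fell by 3.18 in PRDM14 (SE 0.10, limma adjusted p = 2.52e-06), by 2.94 in Dnmt1_KO (SE 0.12, limma adjusted p = 2.98e-05), by 1.42 in TKO, by 1.13 in PRDM14_DNMT3B and by 0.74 in Dnmt3b_KO. In PRDM14_DNMT3B it lay 2.04 above PRDM14 (limma adjusted p = 7.38e-05), and in TKO 1.52 above Dnmt1_KO (limma adjusted p = 0.002).

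Its neighbours differed from it. Ddc, dopa decarboxylase, was at 1.62 and 1.81 in J1 and at 2.04 to 3.21 on the other 8 arrays. It rose in PRDM14_DNMT3B by 1.44, in PRDM14 by 0.78, in Dnmt1_KO by 0.68 and in Dnmt3b_KO by 0.58, the last not without Dnmt3b_KO replicate 2 (limma adjusted p = 0.0566), and its 0.33 in TKO did not pass (limma adjusted p = 0.108) but passed with quantile normalization, the value table or slide as a block (limma adjusted p of 0.0125 to 0.0415). Cobl, an actin nucleator on the other side of Grb10, was at 2.01 and 2.13 in J1, 3.42 and 3.50 in Dnmt3b_KO, 1.21 in Dnmt1_KO and 1.82 in TKO. It fell by 0.86 in Dnmt1_KO and rose by 1.39 in Dnmt3b_KO (limma adjusted p of 0.00126 and 0.000141). Zrsr1, a retrogene expressed from the paternal allele within Commd1, was at -0.05 and 0.06 in J1 and 0.85 to 1.07 on the 4 arrays of the PRDM14 lines. It rose by 1.02 in PRDM14 and 0.95 in PRDM14_DNMT3B, and by 0.58 in Dnmt1_KO. Its rise of 0.52 in TKO was lost without J1 replicate 1 (limma adjusted p = 0.0531). Commd1, the host gene, was at 4.49 and 4.54 in J1, 4.17 in Dnmt1_KO and 4.23 in TKO. Its differences of -0.35 and -0.29 passed (limma adjusted p of 0.0208 and 0.0406), but the median of the other autosomes lay at -0.205 and -0.121, and after quantile normalization they were -0.18 and -0.14 and did not pass (limma adjusted p of 0.14 and 0.24).

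Hic1 (74978107 to 74978166), a transcriptional repressor named for its methylation in cancer, was at -3.25 and -3.44 in J1. It was at -0.03 and -0.32 in PRDM14, 0.14 and 0.07 in PRDM14_DNMT3B, -1.89 and -2.17 in Dnmt3b_KO, -0.18 in Dnmt1_KO and 0.20 in TKO. J1 was the lowest group and Dnmt3b_KO the next, and the arrays of the other 4 lines lay between -0.32 and 0.20. Against J1 it rose 11.7-fold in TKO, 10.97-fold in PRDM14_DNMT3B, 9.03-fold in PRDM14 and 8.98-fold in Dnmt1_KO, and by 1.32 log2 units in Dnmt3b_KO (limma adjusted p of 4.86e-05, 6.99e-06, 8.59e-06, 7.02e-05 and 0.00092).

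Hist3h2ba (now H2bu2), a histone H2B gene, rose in all 5 groups, from -1.24 and -1.19 in J1 to 1.48 in Dnmt1_KO and 1.496 in TKO. Its differences from J1 were 2.69, 2.71, 1.47 in Dnmt3b_KO, 0.87 in PRDM14 and 0.71 in PRDM14_DNMT3B, with limma adjusted p of 1.87e-05 to 0.000405. The neighbouring H2A gene Hist3h2a (now H2aw), chosen after its values were seen, rose by 0.99 to 1.74 in the 5 groups, most in PRDM14_DNMT3B. Hba-a2, an alpha globin with a near-identical neighbour, was at -2.10 and -2.43 in J1, -2.75 and -2.50 in Dnmt3b_KO, 0.81 in Dnmt1_KO and 0.72 in TKO. It rose 8.46-fold and 7.93-fold in the lines without Dnmt1 (limma adjusted p of 8.17e-05 and 8.85e-05), and by 0.97 log2 units in PRDM14. Tbx21, a T-box factor of T helper cells, was at -3.31 and -3.23 in J1, -1.46 in Dnmt1_KO and 0.05 in TKO, a rise of 9.97-fold in TKO (limma adjusted p = 5.8e-05).

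**Figure D4:**
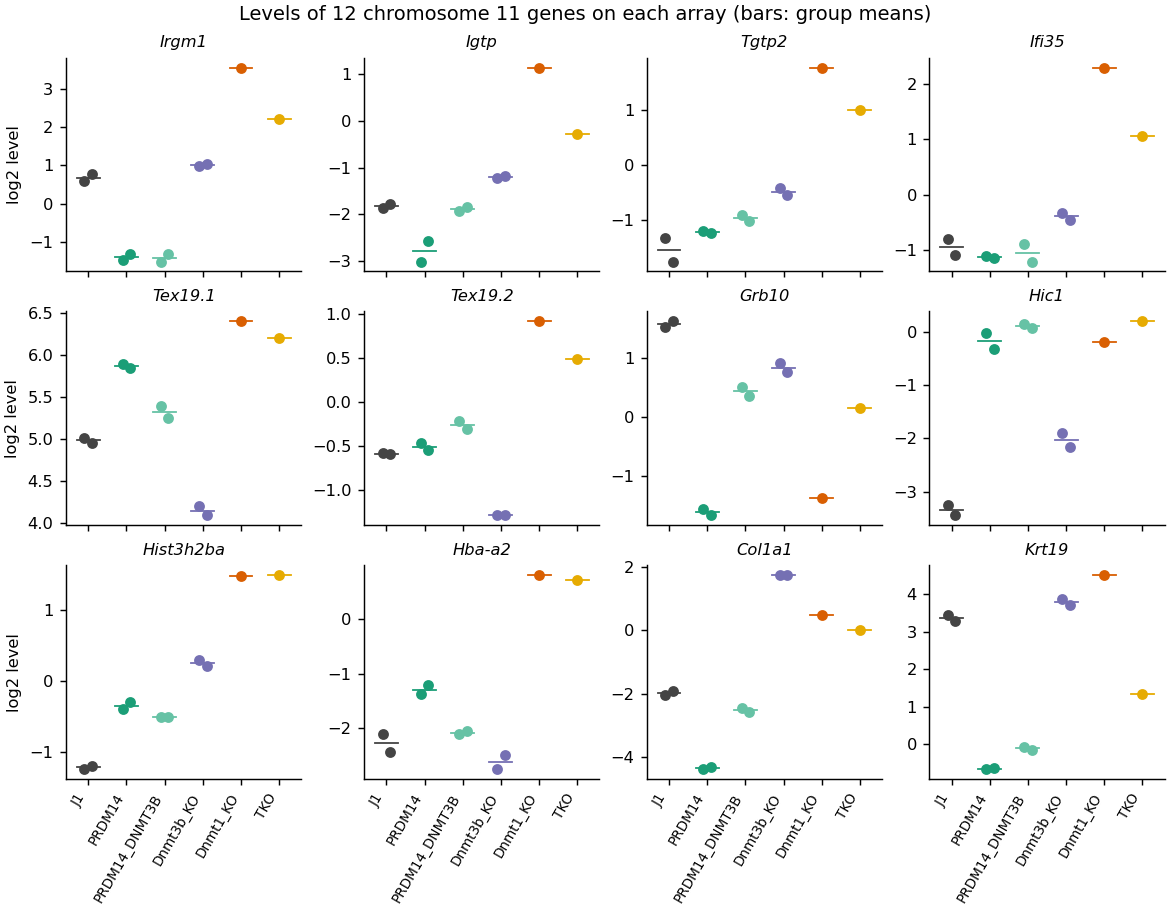
Levels of 12 members on each array (log2 signal relative to the array's 75th percentile; each panel has its own axis), with points for arrays and bars for group means. Irgm1, Igtp, Tgtp2 and Ifi35 are highest in Dnmt1_KO and next in TKO, Grb10 and Hic1 set J1 apart from the other 5 groups, and Krt19 is low in both PRDM14 lines.

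A transcript without a gene symbol, ENSMUST00000070897 (120047925 to 120047984), was among the largest falls in all 5 comparisons. It was at 1.91 and 1.76 in J1 and at -0.82 to -1.58 on the other 8 arrays, and fell by 2.87 (Dnmt1_KO) to 3.29 (PRDM14), with limma adjusted p of 7.67e-05 to 0.00102. J1 alone was high, and these 5 comparisons share it. ENSMUST00000125538 was at -0.01 and -0.15 in J1, and at -2.36 to -2.73 in Dnmt3b_KO, Dnmt1_KO and TKO, where it fell by 2.28 to 2.56. In PRDM14 and PRDM14_DNMT3B it fell by 0.74 and fell by 0.61.

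Most measured type I keratins, filament proteins of epithelia, fell in the lines labelled PRDM14 and PRDM14_DNMT3B. Krt19, a type I keratin of simple epithelia (100002392 to 100002451), was at 3.45 and 3.28 in J1, 3.89 and 3.72 in Dnmt3b_KO, 4.51 in Dnmt1_KO and 1.35 in TKO. In PRDM14 it was at -0.66 and -0.63 and in PRDM14_DNMT3B at -0.07 and -0.15. It fell 16.1-fold in PRDM14 (limma adjusted p = 1.26e-06) and 11.1-fold in PRDM14_DNMT3B (limma adjusted p = 2.43e-06), fell by 2.02 in TKO and rose by 1.15 in Dnmt1_KO. Of 6 measured type I keratins, 0 rose and 4 fell in PRDM14, at a median of -1.28 where all genes had -0.02 and 24.1% of all genes were called lower. In PRDM14_DNMT3B 0 rose and 4 fell too, where 25% of all genes were called lower. In Dnmt1_KO 2 rose (Krt19 and Krt14) and 1 fell, at a median of 0.45 where all genes had -0.19 and 37.6% were called. These counts leave out listed keratins near background on some arrays. Krt23 and Krt15 were above background on no J1 array. Krt23 was at least 2.55-fold higher than J1 in PRDM14, and Krt15 at least 2.09-fold higher in PRDM14_DNMT3B. Krt20 was at least 5.18-fold lower than J1 in PRDM14_DNMT3B.

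Cldn7, a tight junction claudin, was also low in the PRDM14 lines. It was at 3.94 and 3.65 in J1, 0.28 and 0.16 in PRDM14 and 0.23 and -0.10 in PRDM14_DNMT3B, falls of 11.95-fold and 13.3-fold (limma adjusted p of 7.73e-06 and 7.27e-06). In Dnmt1_KO it rose by 1.32 to 5.11, and its 0.25 in TKO did not pass. Sept4 (now Septin4), a septin, was at -0.24 and -0.37 in J1, 0.34 in Dnmt1_KO and -2.92 in TKO. Against J1 it fell by 2.62 in TKO, by 2.53 in PRDM14 and by 2.90 in PRDM14_DNMT3B. Cxcl16, a chemokine, fell by 3.68 in PRDM14, by 2.68 in PRDM14_DNMT3B and by 1.70 in TKO. Metrnl, a secreted protein, fell by 3.43 in PRDM14 and by 1.96 in PRDM14_DNMT3B but rose by 1.36 in Dnmt1_KO and 1.02 in TKO.

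Of 5 trophoblast markers checked (Cdx2, Eomes, Elf5, Krt8 and Krt18), the 2 keratins Krt8 and Krt18, which lie on another chromosome and are found in other simple epithelia too, made up most of the summed linear level. The sum was 126 to 133 in J1, 7.01 to 7.36 in PRDM14, 10.23 to 10.74 in PRDM14_DNMT3B, 212 to 225 in Dnmt3b_KO, 246 in Dnmt1_KO and 45.8 in TKO. It was thus low in both PRDM14 lines, where Krt19 and Cldn7 were low. In TKO it was below J1, as Krt19 was, while Cldn7 at 4.05 was not. The members differed: in Dnmt1_KO Krt8 was at 6.06 (J1 mean 5.28), Krt18 at 7.46 (J1 6.47) and Eomes at 1.59 (J1 0.29), but Cdx2 was lower, at -1.60 (J1 -0.71). Of the 5, 4 were well above background on every array, and Elf5 was on none. Their part in the result was not tested. For 5 primitive endoderm markers (Gata4, Gata6, Sox17, Sox7 and Foxa2) the sum was 1.98 in TKO, with all 5 above background. On the other arrays it was 0.366 to 0.690. In TKO Gata6 was at -0.73 (J1 mean -3.83), Sox17 at -1.29 (J1 -4.98) and Gata4 at -1.60 (J1 -4.01). Sox7, at -2.44 in TKO, was higher in PRDM14_DNMT3B, at -1.69. The part of these markers in the TKO differences was not tested either.

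Matrix and adhesion genes split the lines. Col1a1 (94813115 to 94813174), a fibrillar collagen chain, was at -2.05 and -1.91 in J1, -4.38 and -4.30 in PRDM14, -2.47 and -2.56 in PRDM14_DNMT3B, 1.73 on both Dnmt3b_KO arrays, 0.49 in Dnmt1_KO and 0.01 in TKO. It rose 13.1-fold in Dnmt3b_KO (limma adjusted p = 8.76e-06), by 2.47 log2 units in Dnmt1_KO and 1.99 in TKO. In PRDM14 it fell by 2.36 and in PRDM14_DNMT3B it fell by 0.54. Timp2, an inhibitor of metalloproteinases, rose by 1.28 in Dnmt3b_KO and 0.87 in Dnmt1_KO and fell by 2.52 in PRDM14 and by 3.62 in PRDM14_DNMT3B. Itgb3, an integrin chain, rose over J1 in every other group, least in Dnmt3b_KO (0.53) and most in PRDM14 (2.65). Itga3, another integrin chain, fell by 2.55 in TKO, by 1.26 in PRDM14 and by 1.94 in PRDM14_DNMT3B, and its -0.28 in Dnmt1_KO did not pass. Adamts2, a procollagen protease, rose 8.47-fold in TKO (limma adjusted p = 0.000376) and by 1.66 in Dnmt1_KO.

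Of 8 measured matrix and adhesion members, 4 rose and 1 fell in Dnmt1_KO at a median of 0.57 (all genes -0.19, 37.6% called). In TKO 2 rose and 2 fell (median 0.09, all genes -0.12, 37.4% called). In Dnmt3b_KO 3 rose and 0 fell (median 0.18, all genes -0.08, 31.7% called), and in PRDM14 3 rose and 4 fell (median -0.26, all genes -0.02, 49.4% called). The summed level of 6 fibroblast markers was 6.10 to 6.27 on the 4 arrays of the knockout lines, 3.32 to 3.72 in J1 and 1.20 to 1.84 in the lines labelled PRDM14 and PRDM14_DNMT3B. The sum was carried by Col1a2, which was at -2.05 in J1 and 1.42, 1.19 and 0.74 in Dnmt3b_KO, Dnmt1_KO and TKO, and by Thy1, at 1.39 in J1 and 1.57, 1.79 and 2.01 there. Dcn was lower than in J1 (-1.10) in these lines, at -1.80, -1.45 and -1.26, and Col3a1 was not higher, at -2.86, -3.04 and -3.55 against -2.84. Col1a2 and Thy1 were well above background on all arrays, Col3a1 on 7, Dcn on 6, and Lum and Postn on none. Their part in the matrix result was not tested.

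Of the housekeeping lists in Dnmt1_KO against J1, where 37.6% of all genes were called, 13.5% higher and 24.1% lower, each had under that share called. Of 14 ribosome and translation genes, 0 rose and 0 fell in Dnmt1_KO against J1. Their median was -0.05, which is 0.16 above the other autosomes. Rps27a, a ribosomal protein gene fused to ubiquitin, was at 10.23 and 9.88 in J1 and 10.04 in Dnmt1_KO (difference -0.02). Other probes of Rps27a gave differences of -0.17 and -0.85. Of 14 proteasome and ubiquitin genes, 1 rose and 1 fell (median 0.22 above the other autosomes), of 25 metabolism and mitochondria genes 3 rose and 2 fell (0.15 above), and of 25 chromatin and transcription genes 2 rose and 2 fell (0.21 above). H3f3b, a gene for histone H3.3, was one that rose, by 0.58 (limma adjusted p = 0.0174), but not without J1 replicate 2 (limma adjusted p = 0.0591).

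Of 23 DNA replication, repair and mitosis genes, 4 rose and 2 fell in Dnmt1_KO (median 0.16 above the other autosomes), where 37.6% of all genes were called. Pttg1, the securin that holds sister chromatids together until anaphase, was at 6.04 and 6.22 in J1, 5.24 and 5.35 in PRDM14, 3.78 and 3.80 in PRDM14_DNMT3B, 4.68 and 4.77 in Dnmt3b_KO, 5.57 in Dnmt1_KO and 5.05 in TKO. It fell in each of the 5 groups, least in Dnmt1_KO, by 0.56, and most in PRDM14_DNMT3B, by 2.34 (limma adjusted p of 0.0105 and 6.54e-06), and was chosen after its values were seen. Birc5, the survivin subunit of the chromosomal passenger complex, was at 6.87 to 7.23 on all 10 arrays and passed in no comparison with J1.

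Among 16 members of LIF, STAT3 and growth factor signalling, 5 rose and 2 fell in Dnmt1_KO at a median 0.39 above the other autosomes (37.6% of all genes called). In PRDM14 7 rose and 5 fell (49.4% of all genes called), and in PRDM14_DNMT3B 6 rose and 6 fell (49%). Stat3, the factor that carries the LIF signal, was at 2.97 and 2.63 in J1, 3.47 and 3.29 in PRDM14, 3.59 and 3.38 in PRDM14_DNMT3B, 2.69 in Dnmt1_KO and 2.94 in TKO. It rose by 0.58 in PRDM14 (limma adjusted p = 0.0152) and 0.69 in PRDM14_DNMT3B (limma adjusted p = 0.00783) and did not pass in the knockout lines. Another Stat3 probe differed from J1 by 0.53 in PRDM14 and 0.32 in PRDM14_DNMT3B. On that probe Dnmt1_KO lay at -0.54, TKO at -0.25 and Dnmt3b_KO at -0.20 against J1. Egfr, a growth factor receptor, was at 0.08 and 0.23 in J1, -2.35 and -1.91 in PRDM14, 1.22 in Dnmt1_KO and -0.83 in TKO. It rose by 1.07 in Dnmt1_KO and fell by 2.29 in PRDM14 and by 0.98 in TKO. Another Egfr probe gave 0.72 in Dnmt1_KO and -1.62 in PRDM14 but only -0.16 in TKO. Upp1, uridine phosphorylase, rose by 1.41 in TKO, 1.23 in PRDM14 and 1.17 in PRDM14_DNMT3B, and its 0.49 in Dnmt1_KO did not pass (limma adjusted p = 0.0914) but passed with normexp, quantile normalization, the value table or slide as a block (limma adjusted p of 0.0159 to 0.0423). Stat3 and Egfr were chosen after their values were seen.

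Of 4 measured Wnt and T-box members, 3 rose and 1 fell in PRDM14, where 49.4% of all genes were called, and 3 rose and 0 fell in PRDM14_DNMT3B, where 49% were. Tbx4, a T-box factor of limb and lung, rose by 1.59 and 2.14 in these lines. Wnt9a, a ligand, was at -0.96 and -0.80 in J1, -3.90 and -3.44 in PRDM14 and -1.37 and -1.19 in PRDM14_DNMT3B. It fell by 2.79 in PRDM14 (limma adjusted p = 2.09e-05) and lay 2.39 higher in PRDM14_DNMT3B than in PRDM14 (limma adjusted p = 0.00015). No gene of the Hoxb cluster, 10 listed, was a member: Hoxb9 was well above background on 7 arrays and the others on 0 to 5.

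Other members differed between the lines in other ways. Ntn1, the guidance cue netrin, was at -1.33 and -0.94 in J1, 1.28 and 1.69 in Dnmt3b_KO and -1.79 in Dnmt1_KO. It rose 6.15-fold in Dnmt3b_KO, and by 1.60 and 1.78 in the PRDM14 lines, while -0.65 in Dnmt1_KO and -0.51 in TKO did not pass. Myl4, an atrial myosin light chain, fell by 2.25 in Dnmt3b_KO from 2.23 and 2.31 in J1 to 0.14 and -0.10. Myl4 was also below J1 at 1.53 and 1.48 in PRDM14, 1.75 and 1.45 in PRDM14_DNMT3B and 1.58 in TKO. In Dnmt1_KO it was at 2.01, but there the median of the other autosomes lay at -0.205 against J1. Cygb, cytoglobin, fell by 1.57 in Dnmt3b_KO and rose by 1.501 in PRDM14, 1.90 in PRDM14_DNMT3B and 1.49 in TKO. In the line labelled PRDM14, Gm11564 rose 10.3-fold, from -3.21 and -3.75 to -0.13 and -0.11, and 9.47-fold in PRDM14_DNMT3B. Zfp750, a factor of epidermal differentiation, rose by 2.51 in PRDM14_DNMT3B and 1.10 in PRDM14. Gpx3, a secreted glutathione peroxidase, rose by 2.35 in Dnmt1_KO, 1.93 in TKO and 1.95 in PRDM14_DNMT3B, and its 0.06 in PRDM14 did not pass.

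Comparisons that leave out J1 set the other lines beside each other. Those with Dnmt1_KO use the array on whose level the chromosome was chosen, so the direction of their counts restates that choice. In Dnmt1_KO against Dnmt3b_KO, 313 members were called, 230 higher and 83 lower (all genes 23.3% called, 8.77% higher, 14.5% lower), and without Dnmt3b_KO replicate 1 or 2 the count was 199 or 174 (all genes then 14.2% or 11.9%). Hba-a2 rose 10.8-fold, Ifi35 6.43-fold and Irgm1 5.82-fold, while Ntn1 fell by 3.27 log2 units, Cobl fell by 2.25 and Grb10 fell by 2.20. In TKO against Dnmt1_KO, 154 were called, 46 higher and 108 lower (all genes 11.9%, 6.1% higher, 5.79% lower), a comparison of 1 array with 1 array that rests on the spread of the other groups. Sept4, Krt19 and Cxcl16 fell most, by 3.26, 3.17 and 2.29, and Grb10, Tbx21 and Ppp1r1b rose most, by 1.52, 1.51 and 1.49.

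In PRDM14_DNMT3B against PRDM14, 375 members were called, 183 higher and 192 lower (all genes 30.4%, 14.5% higher, 15.9% lower). The count was 210 without PRDM14 replicate 1, 230 without PRDM14 replicate 2 and 243 without PRDM14_DNMT3B replicate 1 (all genes then 16.8%, 17.7% and 20.03%). Beside Grb10 and Wnt9a, Gpx3 lay 1.89 higher, Col1a1 1.82 higher and Pttg1 1.51 lower, with limma adjusted p of 7.38e-05, 7.38e-05 and 0.000133. The PRDM14 arrays lay alone on slides 3 and 4, so for them slide and line cannot be told apart.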

How the data were processed

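RNA of 10 samples was measured on one-colour Agilent arrays with 60-base probes. Per the file headers, the deposited intensity of each spot came from Agilent Feature Extraction 10.7.3.1 with background trends removed; per the submitters' processing notes limma was also used, with no version stated. The authors deposited a value table on a log2 scale with a median of 4.243 per array, within 0.246 of quantile-normalized log2 intensities, whose exact scaling is unknown; it served as an alternative. Control and outlier spots were left out, the array's 75th percentile was subtracted from log2 intensity, spots were averaged per probe, and 5 genes with missing values were dropped. The number of arrays limits the precision. Symbols came from the files, with current names from RefSeq (1013 members matched, 97 changed). Probe coordinates are mm9; without an mm9 annotation, exon and untranslated positions are not given, and 44 member probes span more than their 60 bases.

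All 10 arrays entered 1 limma 3.58.1 fit (R 4.3.3) of group means without covariates, with 4 residual and 2.737 prior degrees of freedom; the code was tested on simulated data. Summaries used pandas 2.3.3. Differences are on the log2 intensity scale. Alternatives were normexp background correction (offset 50), quantile normalization, the value table, a looser background filter, the mean of all probes, slide as a block, a replicate block, each replicate left out, means over genes, other autosomes without chromosomes 8 and 14, genes below and above the median level and, added after seeing the data, arrays centred on the other autosomes. Members and lists were chosen with earlier results of these data known. Named genes are the 5 highest and 5 lowest called members in each comparison with J1, the 3 highest and 3 lowest in TKO against Dnmt1_KO and Dnmt1_KO against Dnmt3b_KO, the 3 brightest of each list, the brightest of each of 4 stretches of equal gene number, and all measured imprinted and germline members. Irgm1, Ifi47, Slfn10-ps, Cobl, Hist3h2a, Pttg1, Stat3, Egfr, Krt14 and values of named genes in further comparisons were added after their values were seen.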

Additional observations from a re-analysis of the deposited data

Results flagged for a closer look

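Chromosome 11 probes that carry a locus or lincRNA name in place of a gene symbol were left out by the rule and used in no comparison. In Dnmt1_KO against J1, 197 such probes lay at a median 0.107 log2 units above the 3731 on the other autosomes, against 0.222 for the members, and the control samples are part of that difference. In TKO against J1 they lay 0.051 above, in Dnmt3b_KO 0.057 above, in PRDM14_DNMT3B 0.045 above and in PRDM14 at -0.099. Their largest shift was 0.184, in PRDM14_DNMT3B against PRDM14, where the members had 0.015. In Dnmt1_KO against Dnmt3b_KO they had 0.084 (members 0.242), and in TKO against Dnmt1_KO -0.077 (members -0.159).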

How the results depend on the processing

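The Dnmt1_KO shift over J1 kept its sign in the 12 settings run, and of 104 named results that passed, 90 passed in every setting, 14 were lost in at least 1 and 0 reversed. Of 42 named results that did not pass, 13 passed in at least 1 setting, among them Upp1, Mgat1 and Wnt9a in Dnmt1_KO over J1, Ddc in TKO over J1 and Tex19.2 in TKO against Dnmt1_KO. The shift in PRDM14_DNMT3B against PRDM14 reversed to -0.0191 over genes below the median level. Shifts moved by more than the spread between replicates as follows. In Dnmt1_KO against J1 they were 0.182 with normexp, 0.232 with quantile normalization, 0.237 in the authors' deposited value table, 0.205 with the looser background filter and 0.242 over the dimmer genes. In TKO against J1 they were 0.0536 with normexp, 0.0591 with the looser filter and 0.0865 without chromosomes 8 and 14. In Dnmt3b_KO against J1 they were -0.0123 over the dimmer and 0.0145 over the brighter genes and -0.0187 as means. In PRDM14 against J1 they were 0.0192 with normexp, 0.0599 over dimmer and 0.0132 over brighter genes and 0.0531 without chromosomes 8 and 14. In PRDM14_DNMT3B against J1 they were 0.0506 over dimmer and 0.0112 over brighter genes, 0.0383 as means and 0.0472 without those chromosomes. In Dnmt1_KO against Dnmt3b_KO they were 0.199 with normexp, 0.258 in the value table, 0.253 over dimmer genes and 0.230 with slide as a fixed block. In TKO against Dnmt1_KO they were -0.127 with normexp, -0.146 with the looser filter and -0.148 without chromosomes 8 and 14, and in PRDM14_DNMT3B against PRDM14 0.0318 over brighter genes. The cause of these moves was not tested.

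Called members numbered 604 in Dnmt3b_KO against J1 (48.1% of all genes called) and 286 in TKO against Dnmt1_KO (21.8% of all genes) with slide as a fixed block, which could not be fitted for PRDM14, where a random block (correlation 0.554) was used. With the replicate block, PRDM14_DNMT3B against PRDM14 had 574 (45.4% of all genes called); samples with the same number deviated together (r of 0.255 to 0.511 across genes), but only 2 numbers exist and the labels do not pair them. Leaving out each replicate gave shifts of 0.225 to 0.236 in Dnmt1_KO, 0.0661 to 0.0813 in TKO, -0.00857 to 0.0144 in Dnmt3b_KO, 0.0196 to 0.0449 in PRDM14 and 0.0169 to 0.0545 in PRDM14_DNMT3B over J1, 0.238 to 0.240 in Dnmt1_KO over Dnmt3b_KO and 0.000306 to 0.0228 in PRDM14_DNMT3B over PRDM14. Counts then ran from 335 to 410, 342 to 399, 246 to 364, 442 to 583 and 488 to 608 in the same order over J1, from 174 to 309 in Dnmt1_KO against Dnmt3b_KO and from 210 to 388 in PRDM14_DNMT3B against PRDM14. Dim probes close to background limit the folds of members at low level.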

Other observations

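Chromosome 11 genes outside the rule included 325 that all arrays of some group, but not all 10 arrays, measured well above background. Folds for them are lower bounds, in which the dim group takes on each array its own signal or, if higher, the dimmest signal that still counted as well above background. Tex14, a germ cell protein of intercellular bridges, was above background on no J1 array and was at least 36.2-fold higher in PRDM14, 55.6-fold in PRDM14_DNMT3B, 7.86-fold in Dnmt3b_KO, 8.11-fold in Dnmt1_KO and 11.1-fold in TKO. Spata22, another listed germline gene, was above background on both J1 arrays and on no array of the knockout lines. It was at least 2.84-fold lower than in J1 in Dnmt3b_KO, 1.88-fold in Dnmt1_KO and 2.06-fold in TKO. Wnt3 was above background in every group but TKO, where it was at least 9.92-fold lower than in J1.

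Of these 325 genes, 5 (1.54%) were above background in Dnmt1_KO and TKO only, against 3.00% of the 4398 such genes over all chromosomes: Prss38 (at least 5.81-fold and 6.48-fold over J1), Ccr7, D030028A08Rik, Krt12 and Tac4. In Dnmt1_KO alone there were 17 (5.23%, over all chromosomes 6.21%), among them ENSMUST00000069425 (at least 25.1-fold), LOC100505038 (at least 24.5-fold), 4932414J04Rik (at least 5.84-fold) and Slfn3, of the interferon-regulated Schlafen family (at least 2.91-fold). Both PRDM14 lines alone had 4 (1.23%, over all chromosomes 1.52%), Epx, Krtap9-5, Tcam1 and ENSMUST00000092394. These genes were chosen after their values were seen, and none of these patterns was tested.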
